A study of Homo sapiens with 12 samples.

Results

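MYC and 36 genes that make or assemble ribosomes were followed through a doxorubicin exposure of AC16 cells. The 37 genes were taken from a list of symbols: MYC plus factors of RNA polymerase I transcription (6 genes), small nucleolar ribonucleoproteins (snoRNPs, 8), small subunit assembly (9), large subunit assembly (8) and multifunctional nucleolar proteins (5). All 37 were found by symbol among the 60607 gene IDs of the count table, and all 37 were among the 17320 genes that passed the filter on low counts and were tested. AC16 is a human line made by fusing ventricular cardiomyocytes with fibroblasts. All cells were labelled wild type and grown in DMEM/F12 with serum, and libraries were made from total RNA. The control group had DMEM without the drug. Doxorubicin is an anthracycline that intercalates into DNA and poisons topoisomerase II. The other groups received 0.1 µM doxorubicin for 2, 4 or 6 days, with 3 libraries in each of the 4 groups. The titles give these exposures as 48, 96 and 112 hours, so the longest is 6 days by the study's design and 112 hours by its titles, and it is called day 6 here. Every title, those of the control and the shorter exposures included, also carries the words Day6, and whether each exposure ended at harvest is not stated. Day 2, day 4 and day 6 therefore name groups by length of exposure, and a rise or fall from one to the next is a difference between those groups. Whether the 3 repeats were grown as separate cultures is not stated. The p-values therefore measure the spread between these libraries only, and they come from a single cell line.

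MYC is a basic helix-loop-helix leucine zipper transcription factor that pairs with MAX and binds the E-box CACGTG in promoters, many of them promoters of ribosome biogenesis genes. RNA polymerase I transcribes the ribosomal RNA precursor in the nucleolus. SnoRNPs guide its methylation and pseudouridylation. Many assembly factors fold and cleave it into the small and large subunits. Doxorubicin and related intercalators are known to inhibit polymerase I transcription, and heart muscle cells are the cells in which the drug's clinical toxicity limits its use.

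The promoters of these genes are shown because MYC, which binds CACGTG, is one of the members, and many of the others differed between the groups. RefSeq promoter windows (GRCh38.p14) of 300 bases, from 250 before to 50 after the annotated start, were at hand for 29 of the 37 members, with 37 windows in all. MYC, TCOF1, NOP58, NOLC1, RRP12, BOP1, RRP1B and RRS1 have none. The motif CACGTG, which reads the same on both strands, stood in at least 1 window of 15 of the 29 members (51.7%), against 12.0% of the 11725 tested genes with a window. Counted by window, 15 of 37 member windows (40.5%) held it, against 7.26% of all 35116 windows. The 15 matches began between positions -64 and 36 of the start site, where 1 is the start base, and 14 member windows held a match within 50 bases of the start, against 2.82% of all windows. A match describes letters in the window and is neither a binding site nor a cause. The 120 bases from 90 before the start to 30 after it are printed for the members with full values below whose window holds the motif (FBL, WDR43, PNO1, PES1, DDX21 and LYAR), and for POLR1A and NOP16 as examples without it. Where a gene has several windows, the one with the match is used. Each is written 5′ to 3′ on the gene's strand with CACGTG in capitals.
FBL (chr19:39846350-39846469, minus strand, motif at 7): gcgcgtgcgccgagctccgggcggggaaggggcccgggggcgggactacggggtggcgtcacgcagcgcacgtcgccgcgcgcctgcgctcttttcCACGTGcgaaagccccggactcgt
WDR43 (chr2:28894577-28894696, plus strand, motif at 4): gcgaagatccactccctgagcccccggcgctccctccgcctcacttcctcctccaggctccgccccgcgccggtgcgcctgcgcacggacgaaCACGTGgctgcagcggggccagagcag
PNO1 (chr2:68157798-68157917, plus strand, motif at 10): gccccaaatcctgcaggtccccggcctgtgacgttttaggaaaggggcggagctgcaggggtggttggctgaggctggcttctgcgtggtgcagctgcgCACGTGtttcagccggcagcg
PES1 (chr22:30591881-30592000, minus strand, motif at 14): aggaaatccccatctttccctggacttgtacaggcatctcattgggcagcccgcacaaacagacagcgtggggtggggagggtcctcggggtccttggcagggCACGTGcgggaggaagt
DDX21 (chr10:68956557-68956676, plus strand, motif at -31): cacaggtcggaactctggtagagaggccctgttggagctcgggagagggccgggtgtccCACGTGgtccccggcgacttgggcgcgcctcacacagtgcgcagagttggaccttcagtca
LYAR (chr4:4289992-4290111, minus strand, motif at -64): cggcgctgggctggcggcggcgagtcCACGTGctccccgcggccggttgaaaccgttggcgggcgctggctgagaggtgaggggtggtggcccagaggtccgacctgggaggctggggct
POLR1A (chr2:86105857-86105976, minus strand, no match in the window): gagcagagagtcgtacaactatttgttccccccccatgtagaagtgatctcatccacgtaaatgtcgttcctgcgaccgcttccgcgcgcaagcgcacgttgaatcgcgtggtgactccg
NOP16 (chr5:176388569-176388688, minus strand, no match in the window): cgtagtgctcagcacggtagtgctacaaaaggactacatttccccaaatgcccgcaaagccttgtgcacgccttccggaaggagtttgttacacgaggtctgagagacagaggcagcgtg

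The 12 libraries held 14835743 to 21226441 counts, and every member had at least 106 counts in each library. Mitochondrial genes took 5.51% to 8.34% of the counts. Control replicate 2 (8.26%, against 6.01% and 6.75% in the other controls) and day 2 replicate 3 (5.51%, against 7.62% and 7.74%) stood apart from their groups, and counts of calls are also given without both. Of 11 heart muscle markers, 2 (GATA4 and TTN) passed the filter and MYL2 was at 0 in all libraries. Their summed level was 14.6 to 25.6 CPM, so most markers of the labelled cell type, cardiomyocytes, were too low to test. Of 5 endothelial markers 4 passed, and of 8 blood markers 3 passed with HBA1 at 0, at summed levels of 19.9 to 27.2 and 4.95 to 13.2 CPM. All 10 fibroblast markers passed, with a summed level of 7816 to 8527 CPM in control, 11780 to 12110 on day 2, 10130 to 10660 on day 4 and 8702 to 9149 on day 6. The sum is mostly COL1A1, COL1A2 and VIM, and the markers did not share a direction: 7 were called higher and 1 lower than control on day 2, 3 and 5 on day 4, and 2 and 6 on day 6, with median log2 fold changes of 0.34, -0.26 and -0.39. The part of these shifts in the results below was not tested. In bulk RNA, fewer cells with a transcript and less of it per cell cannot be told apart.

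After 2 days of doxorubicin, 17 of 37 members were higher than control and 6 were lower, and from day 2 to day 4 the direction turned: 31 of 37 fell and 1 rose. Against control, 18 members were lower on day 4 and 21 on day 6, and none was higher. MYC fell at each step up to day 4. POLR1A, WDR43, PNO1 and PES1 rose first and were not called against control later. NOLC1, RRP12 and DDX21 rose first and then fell below the control level.

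Levels are CPM, counts scaled to a common library size, after TMM scaling, which corrects for differences in library makeup. A gene is called where edgeR's quasi-likelihood test, fitted to all 12 libraries, gave an adjusted p below 0.05 (Benjamini-Hochberg, 17320 genes). The comparisons with control share the same 3 control libraries. Among all tested genes, 47.2% were called on day 2 (23.8% higher and 23.4% lower), 36.5% on day 4 (18.8% and 17.7%) and 43.7% on day 6 (22% and 21.7%). Between exposures, 34.8% of genes differed from day 2 to day 4 (16.3% higher and 18.5% lower), 6.78% from day 4 to day 6 (3.05% and 3.73%) and 42.8% from day 2 to day 6 (19.8% and 23%). The members' share called higher on day 2 lay above that background, their share called lower on day 2 below it, and no member was called higher on day 4 or day 6. The median log2 fold change of the 37 members against control was 0.17 on day 2, -0.22 on day 4 and -0.28 on day 6, beside -0.01, 0.00 and -0.01 for all tested genes. From day 2 to day 4 it was -0.39, beside 0.00 for all genes. Between day 4 and day 6, 2 members were called, NOP58 (-0.35) and LYAR (-0.55), and the members' median was -0.03. From day 2 to day 6, 31 members were lower and none was higher.

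A test of any difference among the 4 groups called all 37 members, where 63.4% of all genes were called. The highest of the 4 group means stood on day 2 for 25 members (67.57%), in control for 12 (32.43%) and on day 4 or day 6 for none. Of all tested genes, it stood on day 2 for 29.95%, in control for 32.45%, on day 4 for 13.8% and on day 6 for 23.8%. The members' share in control was thus near that of all genes. The lowest mean stood on day 6 for 22 members, on day 4 for 9, in control for 4 and on day 2 for 2. For all tested genes the shares were 24.35%, 13.61%, 31.44% and 30.59% in the same order. On day 2 the 3 libraries lay wholly above the controls for 18 members and wholly below for 7, against 26.1% of all genes in each direction and 52.2% in either. On day 4 they lay wholly above for none and wholly below for 18 (22.8% and 21.8% of all genes, 44.6% in either direction). On day 6 the counts were 2 and 21 (25.8% and 25.1%, or 50.9%). From day 2 to day 4, 1 member was wholly higher and 33 were wholly lower (22.2% and 23.7%, or 45.9%). From day 4 to day 6 the counts were 7 and 11 (13.3% and 14.3%, or 27.6%), and from day 2 to day 6 they were 1 and 31 (25.9% and 26.9%, or 52.8%).

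**Figure D1:**
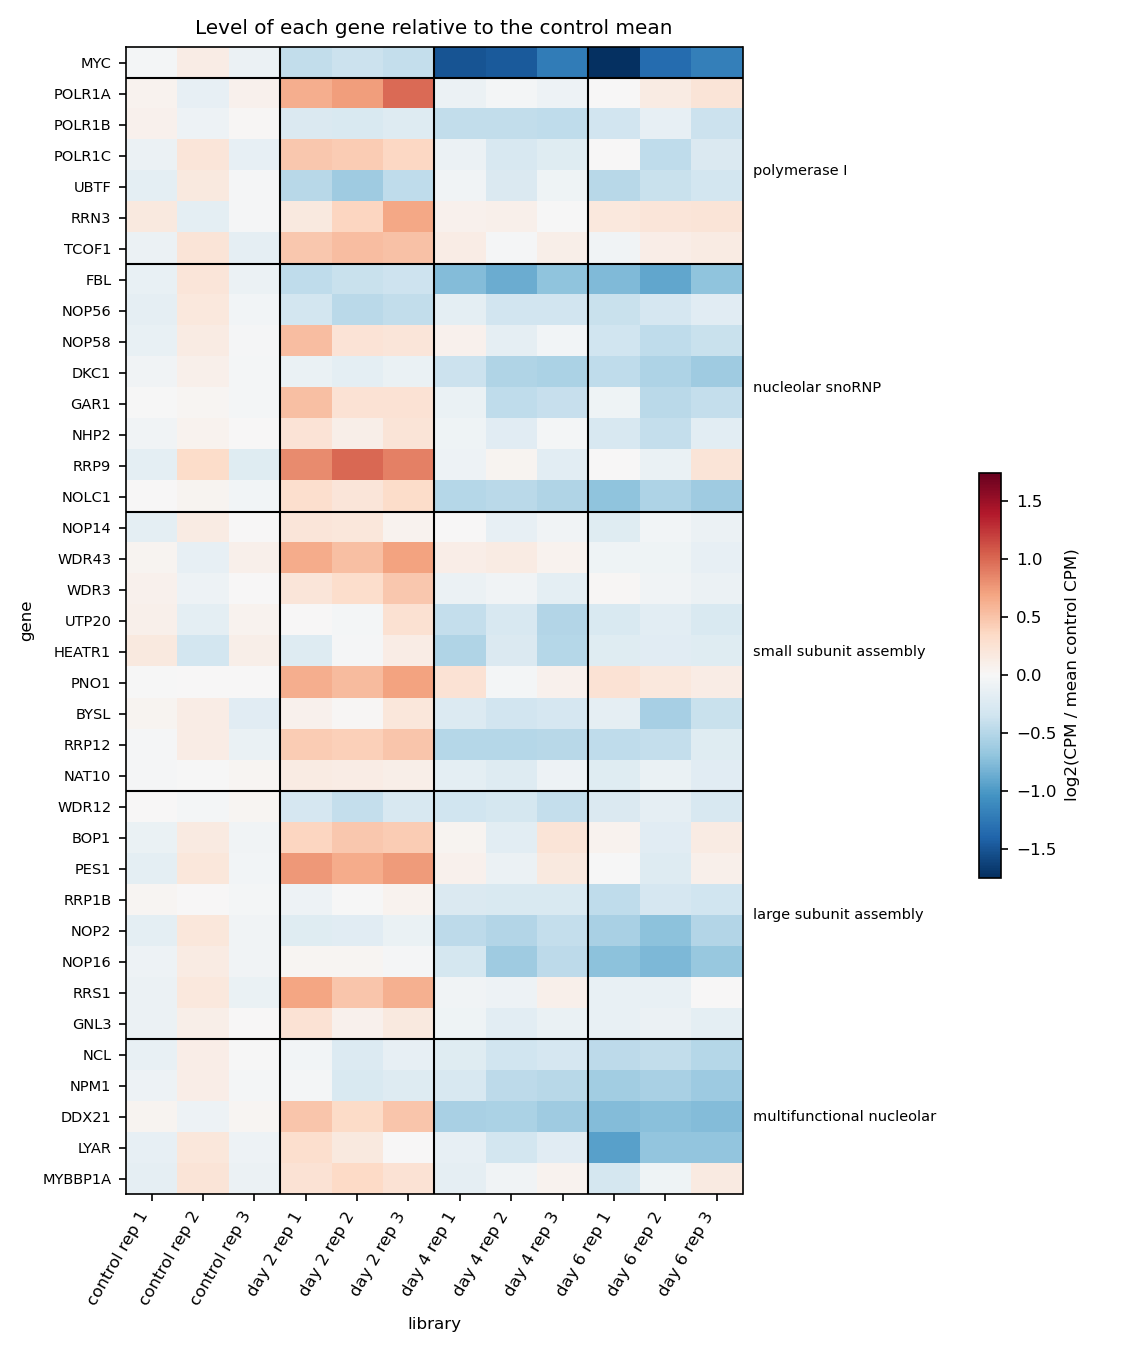
Level of each of the 37 genes (rows, in order of role) in each of the 12 libraries (columns), as log2 of its CPM over the mean CPM of the 3 control libraries; red is above and blue below the control mean. The red block of day 2 covers much of polymerase I and both assembly groups, the day 4 and day 6 columns are mostly blue, and MYC is blue in all 9 treated libraries.

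Scaling by library totals alone, without TMM, moved the median of all genes on day 2 by -0.14 and split the day 2 calls into 13 higher and 10 lower, instead of 17 and 6. It likewise moved the median of all genes by 0.16 between day 2 and day 6 and gave 3 higher and 22 lower members there, instead of none and 31. Without the 2 libraries that stood apart in mitochondrial share, an analysis chosen after seeing the data, the day 2 split was 19 higher and 7 lower, day 4 was 1 and 15, day 6 was 1 and 21, and day 4 against day 2 was 1 and 30.

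MYC itself was measured at 128.4, 143.7 and 123 CPM in the controls, 97.27, 101.2 and 98.31 CPM on day 2, 46.26, 47.57 and 56.16 CPM on day 4, and 39.3, 51.88 and 57.33 CPM on day 6. Every day 2 library lay below every control, and every day 4 and day 6 library lay below every day 2 library, whereas day 4 and day 6 overlapped. Its log2 fold change against control was -0.41 ± 0.10 (SE, n = 3 libraries a group; edgeR adjusted p = 0.00211) on day 2, -1.40 ± 0.11 (adjusted p = 1.92e-10) on day 4 and -1.41 ± 0.11 (adjusted p = 1.05e-10) on day 6. That is 1.33-fold, 2.63-fold and 2.65-fold lower. The fall from day 2 to day 4 was 1.98-fold (log2 fold change -0.98 ± 0.11, adjusted p = 1.07e-07), and between day 4 and day 6 the log2 difference was -0.01 ± 0.11 (adjusted p = 0.969). Per kilobase of annotated exon, MYC stood at 43.9 CPM in control, between NPM1 (331 CPM per kilobase, the highest member) and NOP2 (2.91, the lowest), and at 16.5 on day 6. MYC thus fell on day 2, when 17 other members rose.

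**Figure D2:**
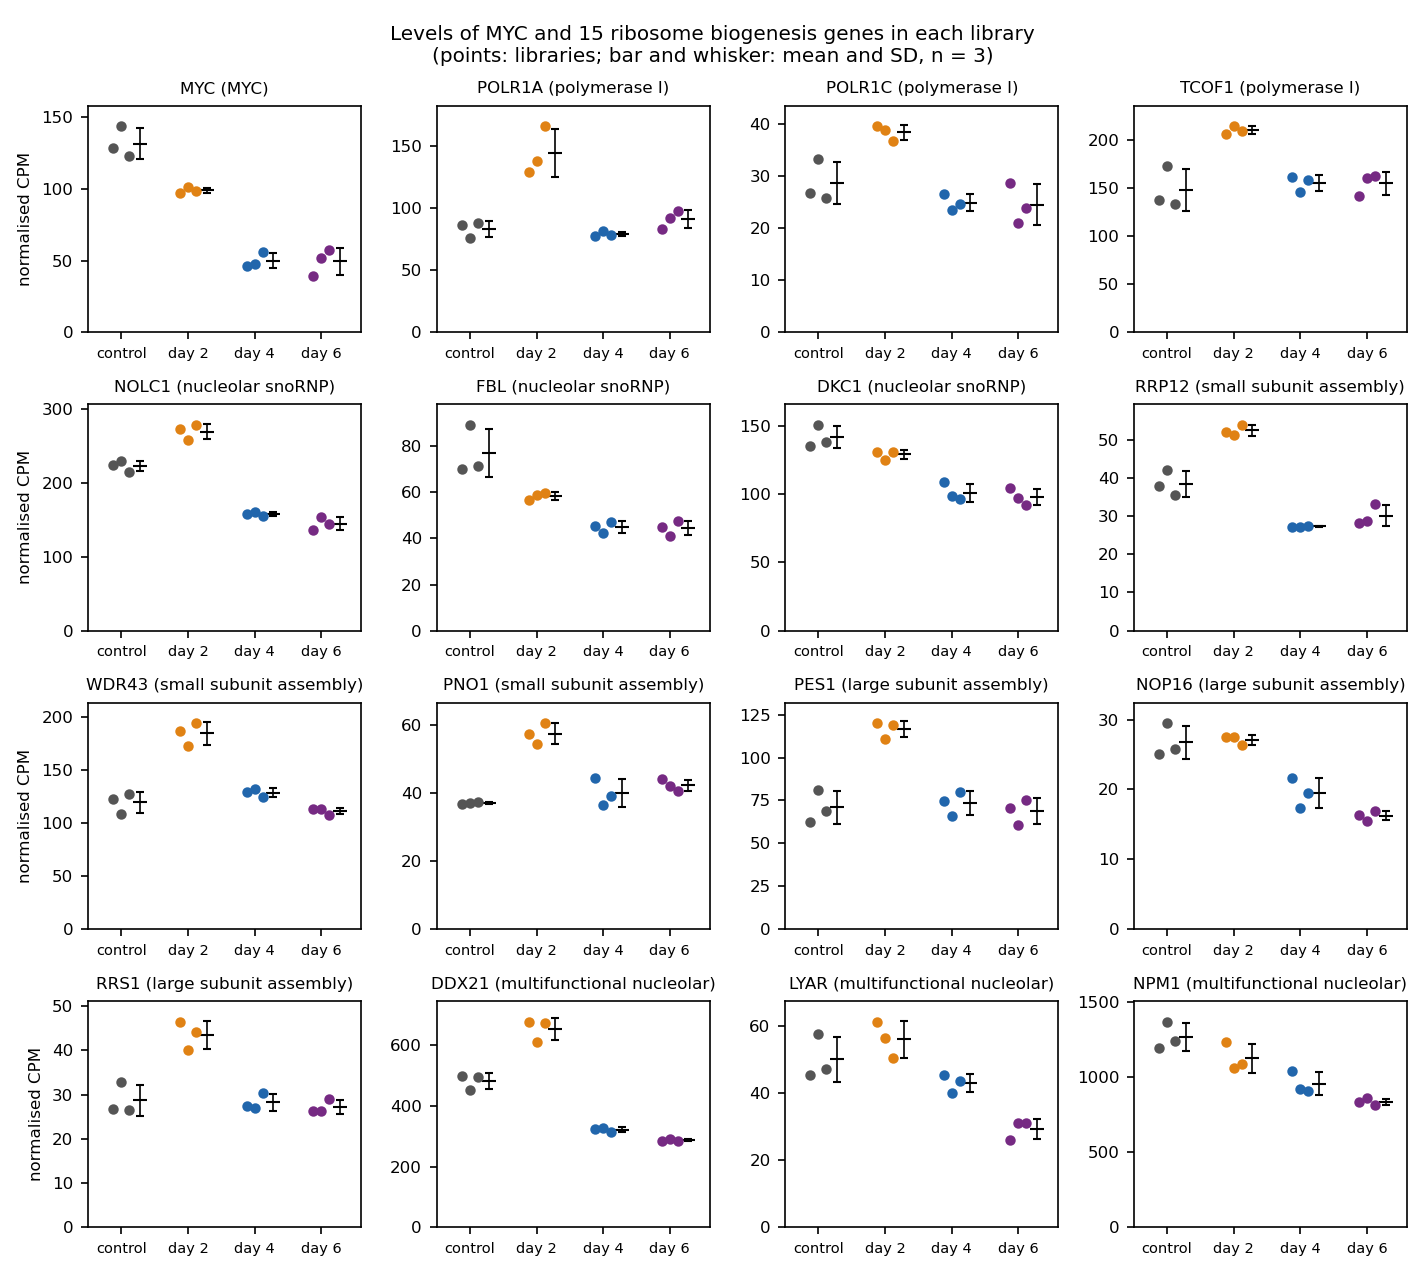
Normalised CPM of MYC and 15 ribosome biogenesis genes in each library (points), with the group mean and SD (bar and whisker, n = 3), in control and after 2, 4 and 6 days of doxorubicin. MYC steps down from 131.7 to 98.9 CPM and on to its day 4 level, while FBL, DKC1 and NPM1 have lower means on day 2 than in control, the other 12 genes have higher ones, and all 15 have lower means on day 4 than on day 2.

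Of the 6 polymerase I genes, 4 rose on day 2 and 2 fell. POLR1A, which encodes the largest subunit of the polymerase, was measured at 86.8, 75.78 and 87.72 CPM in control, 129.4, 138.1 and 166.1 on day 2, 77.93, 81.29 and 78.56 on day 4, and 83.53, 92.16 and 97.66 on day 6. All 3 day 2 libraries lay above the other 9. The day 2 rise was 1.73-fold (log2 0.79 ± 0.09, adjusted p = 1.21e-07), the fall to day 4 was -0.87 ± 0.09 (adjusted p = 6.61e-08), and the day 6 level differed from control by 0.13 ± 0.09 (adjusted p = 0.279). POLR1C, a subunit shared by polymerases I and III, had 26.68, 33.16 and 25.76 CPM in control, 39.46, 38.81 and 36.75 on day 2, 26.52, 23.46 and 24.59 on day 4, and 28.58, 20.93 and 23.89 on day 6. Its day 2 libraries again stood above all others (log2 0.43 ± 0.11, adjusted p = 0.00287), and its day 4 (-0.20) and day 6 (-0.22) values did not pass the test, although without day 6 replicate 1 the latter did (-0.35, adjusted p = 0.0273). POLR1C shares 6.27% of its exon bases with XPO5 on the opposite strand, and the strand setting of the counting is not known. TCOF1 encodes treacle, the nucleolar scaffold of polymerase I, and had 137.5, 172.5 and 132.8 CPM in control, 205.6, 214 and 209.7 on day 2, 161.5, 145.4 and 158.5 on day 4, and 141.2, 160.4 and 162.7 on day 6. It rose 1.42-fold on day 2 (log2 0.51 ± 0.09, adjusted p = 4.70e-05) and lay at 0.07 on days 4 and 6. Control replicate 2 decides those calls, since without it the values were 0.20 on both days and passed (adjusted p = 0.0494 and 0.0471).

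RRN3, which brings the polymerase to its promoter, also rose on day 2 (0.42 ± 0.11, adjusted p = 0.00273), but its day 2 libraries (43.34 to 61.74 CPM) overlapped the controls (34.28 to 43.43). Its call was lost without the 2 libraries that stood apart (0.19, adjusted p = 0.14), and its fall to day 4 (-0.37) without day 2 replicate 3 (-0.22, adjusted p = 0.115). RRN3 has pseudogene copies whose share of reads is unknown here. The genes that fell on day 2 were POLR1B, the second-largest subunit (-0.25 ± 0.09, adjusted p = 0.0185), and UBTF, the factor that coats active rRNA genes (-0.51 ± 0.09, adjusted p = 6.11e-05). UBTF, at 76.98 to 98.04 CPM in control and 56.34 to 64.02 on day 2, was the member that rose again from day 2 to day 4 (0.38 ± 0.09, adjusted p = 0.00199). On day 6 UBTF was lower than control, as on day 2 (-0.40 ± 0.09, adjusted p = 0.00107). Its direct difference between day 4 and day 6 was not called (-0.27, adjusted p = 0.0791). That difference passed with the compared groups alone (-0.26, adjusted p = 0.0334) and without control replicate 2 (-0.27, adjusted p = 0.0247). POLR1B was also lower on day 4 (-0.43) and day 6 (-0.28). Its day 2 call was lost without control replicate 1 or 3, without day 2 replicate 1 or 2 (-0.22 to -0.25, adjusted p = 0.0503 to 0.082), and with no filter on low counts (adjusted p = 0.0799). Its day 6 call was lost without control replicate 1 or day 6 replicate 3 (-0.24 for both, adjusted p = 0.0517 and 0.057). The subunits of the polymerase differed on day 2: POLR1A and POLR1C were higher and POLR1B was lower.

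Of the 8 snoRNP genes, 4 rose on day 2 and 2 fell, and 5 were lower than control on day 4 and 7 on day 6. Fibrillarin, FBL, the methyltransferase of box C/D snoRNPs, was measured at 70.39, 89.37 and 71.67 CPM in control, 56.55, 58.73 and 59.76 on day 2, 45.53, 42.17 and 47.32 on day 4, and 45.15, 41.2 and 47.46 on day 6. Like MYC it stepped down on day 2 (-0.40 ± 0.09, adjusted p = 9.42e-04) and again by day 4 (-0.78 ± 0.09 against control, adjusted p = 4.16e-07), with no overlap between control, day 2 and day 4. On day 6 it was 1.73-fold lower than control. NOLC1, a chaperone of snoRNPs, went the other way first, from 223.3, 229.2 and 214.9 CPM in control to 271.8, 257.3 and 278.1 on day 2, and then to 157.6, 159.8 and 154.9 on day 4 and 136.1, 153.4 and 144.2 on day 6. None of its day 2, day 4 or control ranges overlapped. Its rise was 0.27 ± 0.07 (adjusted p = 0.00287), which scaling by library totals reduced to 0.15 (adjusted p = 0.0806), and its fall from day 2 to day 4 was -0.77 ± 0.07 (adjusted p = 9.31e-09). DKC1, the pseudouridine synthase of box H/ACA snoRNPs, had 135.4, 150.6 and 138.3 CPM in control, 131, 125.2 and 130.8 on day 2, 108.5, 98.15 and 96.01 on day 4, and 104.1, 97.33 and 92.24 on day 6. It was not called on day 2 (-0.13, adjusted p = 0.169; -0.26 and adjusted p = 0.00896 with library totals) and was lower on day 4 (-0.49 ± 0.08, adjusted p = 2.30e-05) and day 6 (-0.53 ± 0.08, adjusted p = 5.14e-06).

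Among the rest of the snoRNP genes, RRP9, the U3-specific protein, had the largest log2 fold change of any member on day 2 (0.90 ± 0.15, adjusted p = 1.47e-05), from at most 10.1 CPM in control to 14.3 to 16.2, and was back at 7.14 to 8.34 CPM on day 4. The box C/D core proteins NOP56 and NOP58 moved apart: NOP56 fell on day 2 (-0.40 ± 0.09, adjusted p = 4.43e-04) and NOP58 rose (0.34 ± 0.09, adjusted p = 0.00388), though not with library totals (0.21, adjusted p = 0.0576). NOP58 then fell in both later steps and stood 1.31-fold below control on day 6. Its fall from day 4 to day 6 (-0.35, adjusted p = 0.0216) was lost with library totals (-0.28, adjusted p = 0.0688), without day 4 replicate 1 or 3 and without any of the day 6 libraries (-0.29 to -0.37, adjusted p = 0.0567 to 0.141). The day 4 call of NOP56 (-0.28) was lost without control replicate 2 (-0.18, adjusted p = 0.084) and without day 4 replicate 2 or 3 (both -0.25, adjusted p = 0.0574 and 0.0566). Its day 6 call (-0.29) was lost without control replicate 2 (-0.19, adjusted p = 0.055) or day 6 replicate 1 (-0.25, adjusted p = 0.0538). GAR1 and NHP2 are H/ACA core proteins: GAR1 rose on day 2 (0.35, adjusted p = 0.016) and was lower on days 4 and 6 (-0.31 and -0.32), while against control NHP2 was called on day 6 alone (-0.29, adjusted p = 0.0146; -0.23 and 0.0887 without day 6 replicate 2). The day 2 call of GAR1 was lost without day 2 replicate 1 (0.26, adjusted p = 0.112) and with library totals (0.23, adjusted p = 0.116). Its day 4 call was lost in most analyses with a library left out (adjusted p = 0.0517 to 0.158) and its day 6 call without any of the controls or day 6 replicates 2 and 3 (adjusted p = 0.0602 to 0.16), while its fall from day 2 to day 4 (-0.67, adjusted p = 9.12e-05) was kept in all of them. NHP2 shares 27.4% of its exon bases with RMND5B on the opposite strand.

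The 9 small subunit genes included none that fell on day 2, and all 9 fell from day 2 to day 4. RRP12, which takes part in maturation and export of the pre-40S particle, was measured at 37.81, 42.03 and 35.47 CPM in control, 52.16, 51.34 and 53.99 on day 2, 27.2, 27.3 and 27.45 on day 4, and 28.21, 28.88 and 33.29 on day 6. The day 2 libraries were the highest of the 12, and all day 4 and day 6 libraries lay under the lowest control. It rose 1.37-fold on day 2 (0.45 ± 0.09, adjusted p = 2.22e-04), fell 1.92-fold to day 4 (-0.94 ± 0.09, adjusted p = 1.83e-08) and was 1.41-fold below control there (adjusted p = 1.73e-04). WDR43, a component of the complex that links early pre-rRNA processing to transcription, had 122.9, 108.2 and 126.8 CPM in control, 186.8, 172.2 and 193.9 on day 2, 129.5, 131.8 and 124.4 on day 4, and 113, 113.2 and 107.5 on day 6. PNO1, a factor of late pre-40S maturation, had 36.9, 37.17 and 37.45 CPM in control, 57.51, 54.42 and 60.6 on day 2, 44.4, 36.42 and 39.09 on day 4, and 44.11, 42.07 and 40.7 on day 6. Both peaked on day 2 with no overlap with any other group, by 0.63 ± 0.08 for WDR43 (adjusted p = 3.41e-07) and 0.63 ± 0.09 for PNO1 (adjusted p = 2.27e-06). Neither was called against control on day 4 or day 6 (WDR43 0.11 and -0.10, PNO1 0.10 and 0.19). The day 6 libraries of PNO1 (40.7 to 44.11 CPM) nevertheless all lay above the controls (36.9 to 37.45), with adjusted p = 0.097 in the edgeR test. Between day 4 and day 6 WDR43 differed by -0.21 (adjusted p = 0.111; 0.0463 without control replicate 2).

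WDR3, of the small subunit processome, rose on day 2 as well (0.33 ± 0.08, adjusted p = 0.00188), from 65.47 to 73.63 CPM in control to 80.69 to 96.99. UTP20, HEATR1 and BYSL did not pass on day 2 (0.09, -0.03 and 0.10) and were lower on day 4 (-0.40, -0.42 and -0.29), UTP20 and BYSL also on day 6 (-0.24 and -0.37). The day 6 call of UTP20 was lost with library totals (-0.21, adjusted p = 0.0695), and without control replicate 1 or 3 or day 6 replicate 1 or 3 (-0.19 to -0.23, adjusted p = 0.0921 to 0.131). The day 4 call of BYSL (adjusted p = 0.0457) was lost in most analyses with a library left out (adjusted p = 0.0505 to 0.148) and with DESeq2 (adjusted p = 0.0506), and its day 6 call without day 6 replicate 2 (-0.27, adjusted p = 0.0736). HEATR1 shares 23.2% of its exon bases with LGALS8 on the opposite strand, and without control replicate 2 it was also lower on day 6 (-0.35, adjusted p = 0.00229). Without both libraries that stood apart it was lower on day 2 too (-0.26, adjusted p = 0.0184). NOP14, another processome protein, and NAT10, the RNA acetyltransferase of 18S rRNA, were not called against control at any exposure (-0.18 to 0.16) but fell from day 2 to day 4 (-0.22 and -0.28), though NOP14 was called higher on day 2 without control replicate 2 (0.24, adjusted p = 0.0226). The fall of NOP14 (adjusted p = 0.0465) was lost in most analyses with a library left out (adjusted p = 0.0519 to 0.16) and with library totals (-0.14, adjusted p = 0.23). NOP14 shares 17.1% of its exon bases with its antisense gene NOP14-AS1, and WDR3 shares 17.1% with SPAG17.

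**Figure D3:**
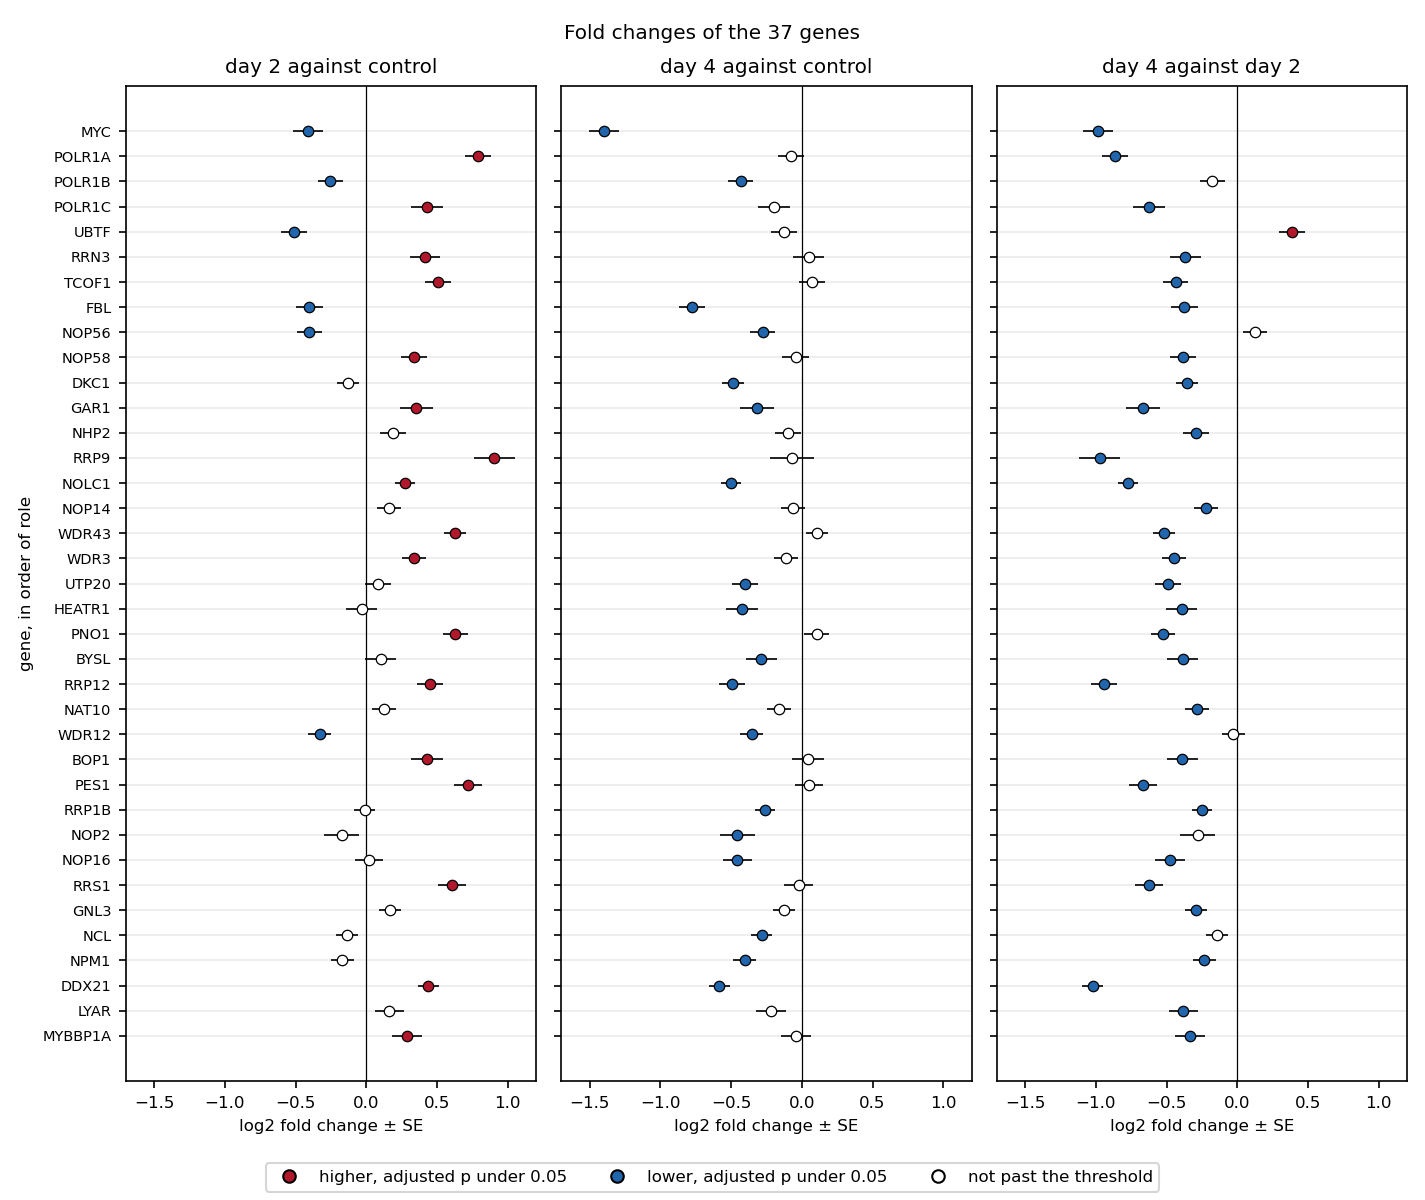
Log2 fold change of each of the 37 genes with its SE on day 2 and day 4 against control, and on day 4 against day 2; red points were called higher, blue points lower, and white points did not pass an adjusted p of 0.05. Day 2 holds 17 red and 6 blue points, day 4 holds 18 blue and no red, and in the right panel UBTF is the single red point among 31 blue.

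For the 8 large subunit genes the count was 3 higher and 1 lower on day 2, and 4 lower on day 4 and on day 6. PES1 was measured at 62.73, 81.29 and 68.83 CPM in control, 120.1, 111.1 and 118.9 on day 2, 74.65, 65.81 and 79.76 on day 4, and 70.8, 60.6 and 75.48 on day 6. PES1, BOP1 and WDR12 form the PeBoW complex, which is needed to process the 28S and 5.8S precursor. The day 2 libraries of PES1 lay above all others (1.65-fold, 0.72 ± 0.10, adjusted p = 1.63e-06), and the later groups overlapped the controls (0.05 and -0.04). BOP1 also rose on day 2 (0.43 ± 0.11, adjusted p = 0.00281), whereas WDR12 fell (-0.33 ± 0.08, adjusted p = 0.0019), from 54.11 to 56.74 CPM in control to 41.69 to 45.76, and remained lower on day 4 (-0.36) and day 6 (-0.23). PES1 and BOP1 thus rose and WDR12 fell on day 2. The day 6 call of WDR12 was lost with library totals (-0.20, adjusted p = 0.0522), and without control replicate 1 or 3 or day 6 replicate 1 or 3 (-0.21 to -0.23, adjusted p = 0.0565 to 0.0796).

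RRS1, which helps to load the 5S ribonucleoprotein, had 26.79, 32.77 and 26.55 CPM in control, 46.47, 40.18 and 44.02 on day 2, 27.43, 26.88 and 30.41 on day 4, and 26.32, 26.32 and 28.94 on day 6. It rose 1.52-fold on day 2 (0.60 ± 0.10, adjusted p = 2.11e-05), and day 4 and day 6 overlapped the controls (-0.02 and -0.08). NOP16, a nucleolar protein of pre-60S particles, showed no such peak, with 25.09, 29.48 and 25.76 CPM in control, 27.52, 27.52 and 26.3 on day 2, 21.66, 17.4 and 19.43 on day 4, and 16.33, 15.53 and 16.86 on day 6. Its day 2 value was 0.02 ± 0.10 (adjusted p = 0.895), and it was lower on day 4 (-0.46 ± 0.10, adjusted p = 0.00119) and day 6 (-0.72 ± 0.11, adjusted p = 4.59e-06), with every later library below every control. NOP16 shares 12.0% of its exon bases with ARL10 and 7.93% with HIGD2A, both on the opposite strand. RRP1B and NOP2, the 28S rRNA methyltransferase, were likewise not called on day 2 (-0.01 and -0.18) and lower on day 4 (-0.26 and -0.46) and day 6 (-0.36 and -0.59). With library totals NOP2 was lower on day 2 as well (-0.30, adjusted p = 0.0486), and 54.4% of its exon bases are shared with a second gene on the same strand that received 2 counts in all. GNL3, nucleostemin, was not called against control at any exposure (0.17, -0.13 and -0.13) and fell from day 2 to day 4 (-0.29 ± 0.08, adjusted p = 0.0046). Without control replicate 2 it was higher on day 2 (0.22, adjusted p = 0.0246).

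Of the 5 multifunctional nucleolar genes, 2 rose on day 2, and 3 were lower on day 4 and 4 on day 6. DDX21, an RNA helicase that works on both polymerase I and polymerase II genes, was measured at 498.3, 451.7 and 493.5 CPM in control, 676.3, 609 and 671.6 on day 2, 324.8, 326.6 and 312.5 on day 4, and 284.7, 289.4 and 283.6 on day 6. The 4 groups did not overlap at any point. It rose 1.36-fold on day 2 (0.44 ± 0.07, adjusted p = 1.83e-05), fell 2.03-fold to day 4 (-1.02 ± 0.07, adjusted p = 8.14e-11) and was 1.68-fold below control on day 6 (-0.75 ± 0.07, adjusted p = 6.47e-09). LYAR, a nucleolar zinc finger protein, had 45.41, 57.79 and 47.3 CPM in control, 61.39, 56.48 and 50.45 on day 2, 45.41, 40.2 and 43.64 on day 4, and 26.08, 31.23 and 31.03 on day 6. It did not pass on day 2 (0.16, adjusted p = 0.199; 0.28 and adjusted p = 0.0228 without control replicate 2) or day 4 (-0.22, adjusted p = 0.105), and its fall came late, between day 4 and day 6 (-0.55 ± 0.11, adjusted p = 0.00217), to 1.70-fold below control.

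NPM1 and NCL, nucleophosmin and nucleolin, are the most abundant of the members and together held 35.3% to 43.7% of the members' summed CPM. NPM1 had 1195, 1369 and 1237 CPM in control, 1236, 1058 and 1084 on day 2, 1042, 923.8 and 905.9 on day 4, and 832.6, 858.9 and 814.8 on day 6. The day 2 libraries overlapped the controls (-0.17, adjusted p = 0.0897), and day 4 (-0.40 ± 0.08, adjusted p = 3.36e-04) and day 6 (-0.60 ± 0.08, adjusted p = 1.58e-06) lay below all controls. With library totals NPM1 was already lower on day 2 (-0.29, adjusted p = 0.0042), as it was without day 2 replicate 1 (-0.23, adjusted p = 0.0381). NPM1 has many processed pseudogenes, and how reads matching several copies were counted is not known here. Its level is uncertain for that reason. NCL was at 973.1 to 1150 CPM in control and 750.4 to 782.8 on day 6 (-0.47 ± 0.08, adjusted p = 2.78e-05). It was not called on day 2 (-0.14; -0.26 and adjusted p = 0.00681 with library totals). MYBBP1A, a nucleolar protein that binds MYB, rose on day 2 (0.29 ± 0.11, adjusted p = 0.0286), and was not called against control later. The call was lost with library totals (0.17, adjusted p = 0.199), and without control replicate 1 (0.22, adjusted p = 0.137), control replicate 3 (0.24, adjusted p = 0.118) or day 2 replicate 2 (0.27, adjusted p = 0.0782).

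Seen as courses, all 17 members that rose on day 2 fell from day 2 to day 4. MYC and FBL fell in both steps, and POLR1B, NOP56 and WDR12 fell on day 2 only. UBTF fell on day 2 and rose to day 4. A further 12 members fell only in the second step, and NOP2 and NCL passed in neither. GAR1, NOLC1, RRP12 and DDX21 were higher than control on day 2 and lower than it on day 4, and the other 13 that had risen were not called on day 4. On both day 4 and day 6, 17 members were lower than control: MYC, POLR1B, FBL, NOP56, DKC1, GAR1, NOLC1, UTP20, BYSL, RRP12, WDR12, RRP1B, NOP2, NOP16, NCL, NPM1 and DDX21. Of day 4 and day 6, UBTF, NOP58, NHP2 and LYAR were lower on day 6 only, HEATR1 on day 4 only, and 15 members on neither. UBTF was lower on day 2 as well. The steps between days rest on the direct comparisons between exposures. With library totals the falls from day 2 to day 4 of NHP2, NOP14, NAT10, RRP1B, NPM1 and MYBBP1A were lost (-0.14 to -0.24, adjusted p = 0.0713 to 0.23). Leaving out day 4 replicate 2 ended those of NHP2, NOP14, NAT10, BOP1 and NPM1 (-0.19 to -0.29, adjusted p = 0.0557 to 0.16).

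Summed over the 37 members, the level was 5478 ± 259 CPM (SD, n = 3) in control, 5729 ± 230 on day 2, 4391 ± 159 on day 4 and 4072 ± 56.8 on day 6. Control libraries ranged from 5262 to 5765 CPM and day 2 libraries from 5477 to 5927, so those overlapped, whereas all day 4 (4280 to 4573) and day 6 (4010 to 4122) libraries lay below both. With library totals alone the control and day 2 means changed order (5595 and 5373 CPM). The polymerase I genes summed to 433 ± 22.5 CPM in control and 546 ± 30.6 on day 2, and returned to 414 ± 13.3 and 420 ± 20.6. The snoRNP genes summed to 865 ± 67.0, 876 ± 40.5, 676 ± 32.3 and 628 ± 9.42 CPM in the 4 groups in order. Small subunit genes gave 660 ± 34.2, 796 ± 42.7, 582 ± 16.7 and 594 ± 6.37 CPM, and large subunit genes 454 ± 24.7, 522 ± 14.7, 403 ± 15.4 and 389 ± 8.54 CPM. The multifunctional genes gave 2933 ± 171, 2889 ± 187, 2265 ± 111 and 1991 ± 38.2 CPM. The polymerase I and both assembly sums thus had their highest mean on day 2, with every day 2 library above every control after TMM scaling. With library totals alone the large subunit sums overlapped, since day 2 replicate 2 lay below control replicate 2.

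POLR1B, UBTF, NOP56 and WDR12, which were lower than control on day 2, held no CACGTG in any window, and FBL, also lower, held it. Of the members with a window, 7 of 11 that rose on day 2 held CACGTG, and 8 of the other 18. Among all tested genes with a window, 12.0% held it. TCOF1, NOP58, NOLC1, RRP12, BOP1 and RRS1 also rose on day 2 but had no window, so these counts leave out many that rose. MYC and RRP1B, which did not rise, had none either. Of those with a window that were lower on day 6, 7 of 16 held the motif, and 8 of the other 13. Among the printed sequences, FBL and LYAR hold the motif and did not rise on day 2, WDR43, PNO1, PES1 and DDX21 hold it and rose, and POLR1A lacks it and rose. No test was made on these counts.

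Lists of other polymerase I genes (18 tested), snoRNP genes (12 of 13), small subunit genes (47) and large subunit genes (56) together held 133 tested genes. Of these, 51 rose and 13 fell on day 2, and 66 fell and 1 rose from day 2 to day 4. Against control, 11 were higher and 31 lower on day 4, and 11 higher and 54 lower on day 6. Among all tested genes, 23.8% were higher and 23.4% lower on day 2, and 16.3% and 18.5% from day 2 to day 4. Those shares were 18.8% and 17.7% on day 4, and 22% and 21.7% on day 6. The lists together lay above them for genes higher on day 2, lower from day 2 to day 4 and lower on day 6. For genes lower on day 4 the difference was small. The median log2 fold change of the 133 genes was 0.12 on day 2, -0.08 on day 4 and -0.19 on day 6. Of the 18 other polymerase I genes, 2 rose and 2 fell on day 2, and 9 were lower on day 6. Both day 2 shares of this list lay below those of all genes. The polymerase subunit POLR2L, shared by all 3 nuclear polymerases, rose on day 2 (0.85 ± 0.12, adjusted p = 2.33e-06) and was higher on day 6 too (0.64), and the promoter selectivity factor TAF1D fell on day 2 (-0.30 ± 0.08, adjusted p = 0.00337). Among other snoRNP genes, 4 rose and 2 fell on day 2. SNU13, the box C/D core protein that binds the snoRNA directly, fell on day 2 (-0.23 ± 0.08, adjusted p = 0.0176) and further to day 6 (-0.61 ± 0.08, adjusted p = 8.63e-07).

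Small subunit factors outside the members rose in 19 of 47 cases on day 2, and 27 of 47 fell to day 4. RIOK3, a kinase found on pre-40S particles, rose from 110 ± 8.99 to 262 ± 19.3 CPM (1.25 ± 0.09, adjusted p = 1.40e-11) and was still higher on day 6 (0.68 ± 0.09). NOB1, the nuclease that makes the 3′ end of 18S rRNA, was lower on day 4 (-0.70 ± 0.11, adjusted p = 1.81e-05) and day 6 (-0.86 ± 0.11, adjusted p = 7.80e-07). Among large subunit factors, 26 of 56 rose on day 2 and 31 of 56 fell to day 4, and 22 were lower on day 6. The matching shares of all tested genes were 23.8%, 18.5% and 21.7%. ZNF622, which acts on late pre-60S particles, rose from 23.5 ± 2.79 to 57.4 ± 4.23 CPM on day 2 (1.29 ± 0.10, adjusted p = 1.04e-10) and URB1, a nucleolar factor of early pre-60S particles, from 68.0 ± 7.58 to 143 ± 16.8 CPM (1.07 ± 0.10, adjusted p = 1.48e-09). PAK1IP1 (-0.69 ± 0.09) and DDX27 (-0.64 ± 0.09) were among the 22 lower on day 6.

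**Figure D4:**
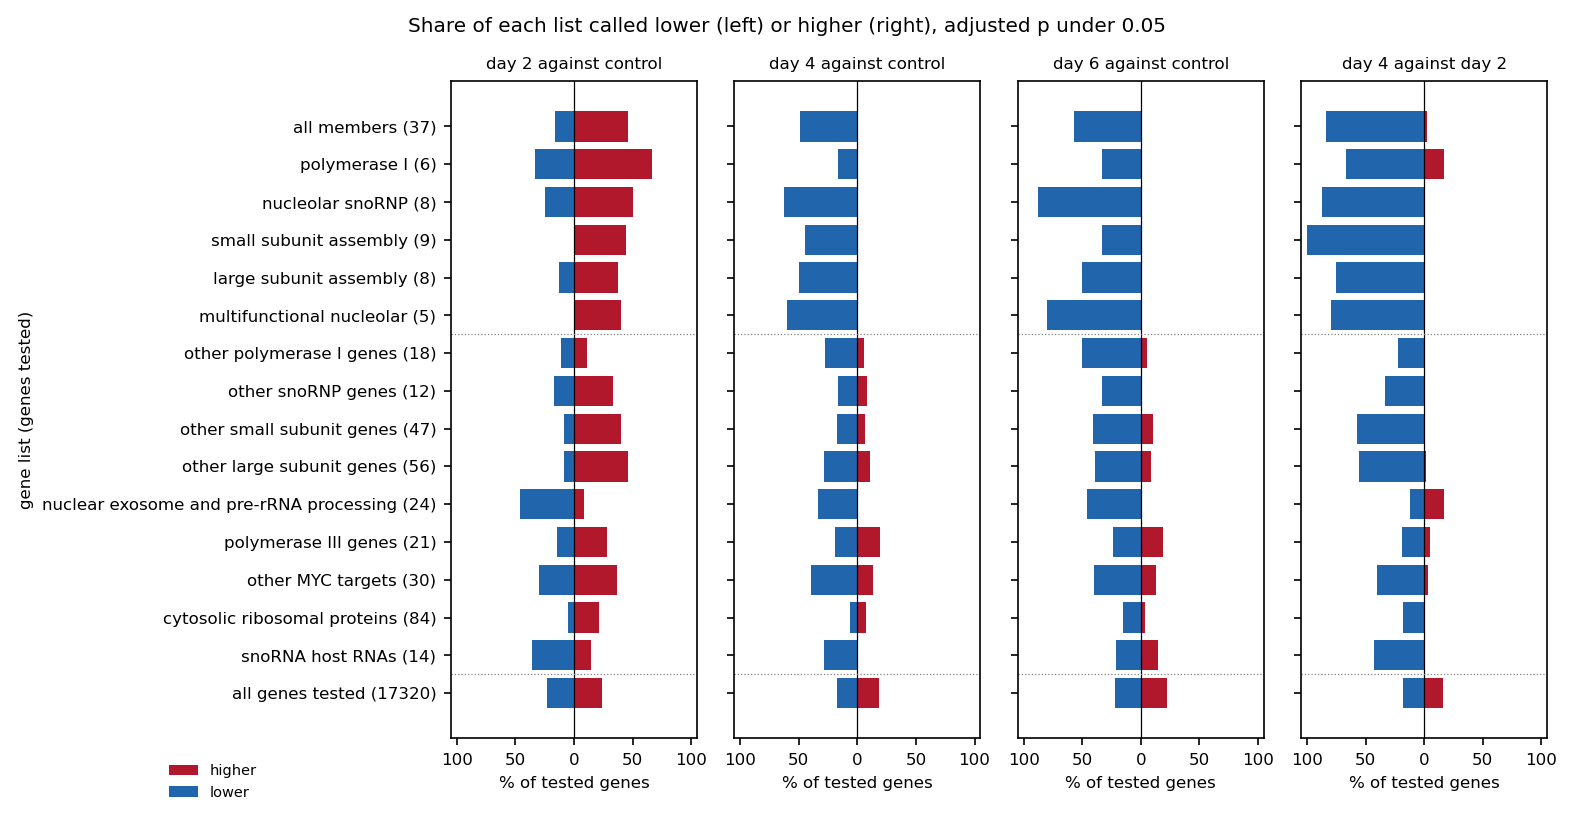
Percent of each list's tested genes (number in brackets) called lower (blue, to the left) or higher (red, to the right) in 4 comparisons; the upper 6 bars are the members and their role groups, the middle bars other lists, and the lowest bar all 17320 tested genes. For the 37 members the bar reaches 45.9% higher on day 2 and 83.8% lower on day 4 against day 2, where all genes reach 23.8% and 18.5%.

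The list of nuclear exosome and pre-rRNA processing genes leaned the other way on day 2: 2 of 24 genes rose and 11 fell. From day 2 to day 4, 4 rose and 3 fell. Among all tested genes, 23.8% were higher and 23.4% lower on day 2, and 16.3% and 18.5% from day 2 to day 4. The list's share lower on day 2 lay above that of all genes. In the later step its share higher was near that of all genes and its share lower was below it. EXOSC8, an exosome core subunit, fell from 49.3 ± 5.23 to 29.2 ± 2.86 CPM (-0.75 ± 0.10, adjusted p = 8.37e-07), and MTREX, the exosome's helicase, fell by 0.53 ± 0.08 on the log2 scale (adjusted p = 3.75e-06). Both rose again to day 4 (0.31 and 0.32). Of 21 polymerase III genes, 6 were higher and 3 lower than control on day 2, and 4 higher and 5 lower on day 6. The day 6 shares were near those of all genes (22% and 21.7%), and the share lower on day 2 was below that of all genes. The 2 largest subunits stood on opposite sides at every exposure: POLR3A was 0.55, 0.37 and 0.61 above control and POLR3B -0.54, -0.56 and -0.64 (all called).

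Around MYC, 17 of 19 listed partners and regulators were tested (MYCN and MLXIPL were not). Against control, 4 were higher and 8 lower on day 2, 3 and 8 on day 4, and 3 and 8 on day 6. Among all tested genes the shares were 23.8% and 23.4%, 18.8% and 17.7%, and 22% and 21.7%. MAX, the partner MYC needs to bind DNA, was at 30.88, 36.64 and 35.41 CPM in control, 52.77, 55.11 and 49.43 on day 2, 40.1, 39.84 and 45.95 on day 4, and 38.51, 39.57 and 42.42 on day 6. It was higher at every exposure (0.61 ± 0.09, 0.29 ± 0.09 and 0.23 ± 0.09, adjusted p = 6.54e-06, 0.0162 and 0.0494), while MYC was lower at every exposure. FBXW7, the ubiquitin ligase subunit that marks MYC for degradation, was at 34.2 ± 3.33 CPM in control and 59.8 ± 2.77 on day 2 (0.80 ± 0.09, adjusted p = 1.10e-07), and back at 32.7 ± 2.39 on day 4. PIM1, a kinase that acts with MYC, stepped down with it, from 87.5 ± 3.01 to 73.6 ± 2.81, 47.7 ± 3.27 and 41.5 ± 2.49 CPM (-0.25, -0.88 and -1.08, all called). The MAX partners that oppose MYC did not share a direction: MXI1 fell on day 2 (-0.52), MXD3 was lower at every exposure (-1.16, -0.90 and -0.96), MXD1 and MNT were lower on day 4 (-0.39 and -0.44) and day 6 (-0.44 and -0.44), and MXD4 was higher on day 4 (0.53) and day 6 (0.41). MLXIP (0.69) and ZBTB17 (0.31) rose on day 2, and MLX (-0.28), MYCL (-1.25), MYCBP2 (-0.57), HUWE1 (-0.43) and USP28 (-0.55) fell. MLX, MYCBP2, HUWE1 and USP28 were lower on days 4 and 6 as well (-0.32 to -0.62), MYCBP was higher on both (0.36 and 0.31), and MGA was called at none.

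A list of 30 other MYC target genes that do not build ribosomes had 11 higher and 9 lower on day 2. On each of days 4 and 6 it had 4 higher and 12 lower, and its medians were 0.01, -0.04 and -0.14. Among all tested genes, 23.8% were higher and 23.4% lower on day 2, 18.8% and 17.7% on day 4, and 22% and 21.7% on day 6. NME1, a nucleoside diphosphate kinase, rose on day 2 (1.28 ± 0.10, adjusted p = 1.30e-10), and ODC1, the rate-limiting enzyme of polyamine synthesis, did too (0.69 ± 0.09, adjusted p = 4.28e-07). CAD, the enzyme that starts pyrimidine synthesis, fell on day 2 (-0.77 ± 0.08, adjusted p = 4.98e-08) and stayed lower on day 4 (-0.75), and CDK4 fell on day 2 (-0.71 ± 0.08, adjusted p = 1.62e-07).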

How the data were processed

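Total RNA of AC16 cells was used for libraries (NEBNext Ultra, per the labels) and sequenced in 12 libraries of 4 groups. The authors deposited raw counts per gene, whole numbers without normalization. Per the submitters' processing notes, the build was GRCh38.p13 and the tools were HTSeq 0.13.5, STAR 2.7.8, Trimmomatic 0.38 and fastp 0.23.2, with no roles or order. For the annotation release and strand setting the sources used here give nothing. Reads of genes that overlap on opposite strands therefore cannot be told apart. Library totals were 14835743 to 21226441, and 0 columns of other samples were present. No pair of libraries of a group had counts close enough to be copies.

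Genes were kept by edgeR 4.0.16 filterByExpr (minimum count 10, minimum total 15; R 4.3.3), scaled by TMM and fitted together with glmQLFit (robust, limma 3.58.1), and 6 comparisons of the 4 groups and a test of any difference were then made with glmQLFTest, Benjamini-Hochberg adjusted over 17320 genes, threshold 0.05. The SE is the absolute log2 fold change over the square root of F. The steps were tested on simulated data. Full values are given for MYC and, in each role group, the 3 members with the smallest p in the test of any difference, and the text names, of each other list, genes among the 2 called with the smallest p in each direction and comparison with control, and all tested MYC network genes. The members and lists were chosen with earlier results of these data known. Exon lengths and overlaps come from GENCODE (GRCh38), promoters from RefSeq. Alternatives were library totals, DESeq2 1.42.0, other filters, the compared groups alone, the repeat number as a block and each library left out.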

Additional observations from a re-analysis of the deposited data

Results flagged for a closer look

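The effect of doxorubicin on a member differed between exposures, by the direct edgeR test with Benjamini-Hochberg adjustment, for 32 of 37 members between day 4 and day 2. It differed for 2 between day 6 and day 4, and for 31 between day 6 and day 2. Among all tested genes the shares called were 34.8%, 6.78% and 42.8% in the same order. The count between day 6 and day 4 was thus near the share of all genes. These comparisons set treated groups against each other, with the control libraries in the same fit. For 5 genes the effect also changed sign between calls, from higher than control on day 2 to lower than control later. With library totals the day 2 calls of GAR1, NOLC1 and NOP58 were lost (adjusted p = 0.116, 0.0806 and 0.0576). The calls of GAR1 against control were also lost in some analyses with a library left out. DDX21 differed by -1.02 on the log2 scale on day 4 and by -1.19 on day 6, relative to day 2. RRP12 differed by -0.94 and -0.80, NOLC1 by -0.77 and -0.90, and GAR1 by -0.67 and -0.67. NOP58, which was lower than control on day 6 only, differed by -0.73 between day 6 and day 2.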

How the results depend on the processing

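No fold change of a member reversed in sign between calls under any setting. Over all alternatives planned, 4087 gene values kept their side of the threshold, and those past it kept their direction. Another 111 were no longer past it and 20 newly passed it. The signs of values past the threshold in neither fit were not compared. Between day 4 and day 6 the 2 members called became 1 with library totals alone, 4 without the 2 libraries that stood apart in mitochondrial share (chosen after seeing the data), and 1 to 4 when each library was left out. The summed level of the members with library totals alone was 5373 CPM on day 2 (5729 with TMM) and 4265 on day 6 (4072). Leaving out each library gave 21 to 26 called members on day 2, 15 to 18 on day 4, 17 to 21 on day 6, 27 to 32 for day 4 against day 2, 29 to 32 for day 6 against day 2 and 35 to 37 for any difference. Deviations of libraries with the same repeat number correlated by -0.17 to 0.10 (none of 18 pairs over 0.1), and no label says what a number shares. With the repeat number as a replicate block, 23, 17 and 20 members were called against control on days 2, 4 and 6, then 31 (day 4 against day 2), 2 (day 6 against day 4), 31 (day 6 against day 2) and 37 (any difference). The causes of lost calls were not tested. Depth set few limits here, since the lowest count of a member in a library was 106.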

Other observations

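A list of cytosolic ribosomal protein genes was picked by symbol pattern, so it also took in like-named genes such as RPS27L. Ribosomal proteins are what the assembly factors build in. Of its 84 tested genes, 18 were higher and 4 lower on day 2, 6 and 5 on day 4, and 3 and 13 on day 6. Among all tested genes, 23.8% were higher and 23.4% lower on day 2, 18.8% and 17.7% on day 4, and 22% and 21.7% on day 6. Each share of the list lay below that of all genes. The list's medians were 0.17, -0.01 and -0.08. RPS27L led on day 2, from 60.8 ± 5.30 to 251 ± 31.2 CPM (2.04 ± 0.10, edgeR adjusted p = 1.43e-14), and stayed high on day 4 (1.68) and day 6 (1.93). RPS19 was higher on day 2 (0.47 ± 0.08, adjusted p = 3.51e-05), and RPS16 was lower at every exposure (-0.35, -0.49 and -0.60). Ribosomal protein genes have many pseudogene copies, so single values are uncertain, and control replicate 2 had a summed level of 32670 CPM beside 25810 and 26400 in the other controls.

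A list of 9 genes of the ribosomal protein and nucleolar stress link, 5 of them ribosomal proteins of the list above, had 3 higher and 1 lower on day 2. MDM2, a ubiquitin ligase that free ribosomal proteins can bind, rose from 162 ± 14.6 to 2227 ± 225 CPM (3.78 ± 0.10, adjusted p = 3.19e-19) and was at 1033 ± 71.9 on day 4 and 1279 ± 124 on day 6. MDM4 was lower at every exposure (-0.40, -0.57 and -0.31). Of 14 snoRNA host RNAs, 2 rose and 5 fell on day 2 and 6 fell from day 2 to day 4. Among all tested genes, 23.8% were higher and 23.4% lower on day 2, and 18.5% were lower on day 4 than on day 2. SNHG1 was lower on day 2 (-0.42 ± 0.07, adjusted p = 3.01e-05) and day 4 (-0.48 ± 0.07, adjusted p = 8.60e-06), SNHG3 fell on day 2 (-0.79 ± 0.10, adjusted p = 2.32e-07), and ZFAS1 rose on day 2 (0.56 ± 0.08, adjusted p = 4.57e-06).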
